A study of Mus musculus with 10 samples.

Results

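The 10 genes described here encode ligands, receptors and mediators of transforming growth factor beta (TGF-beta) signalling. They were chosen by gene name, as Tgfb1, Tgfb2, Tgfb3, Tgfbr1, Tgfbr2, Tgfbr3, Smad3, Smad7, Skil and Ltbp1, and all 10 were found among the 49164 genes with counts. Polyadenylated RNA had been sequenced from epithelium peeled off mouse gingiva (the gum around the teeth) after treatment with the protease Dispase, in 5 libraries from the buccal side, toward the cheek, and 5 from the palatal side. The labels give the tissue only, and name no strain, age, sex or treatment for either side. The series' design text speaks of pooled germ-free and specific-pathogen-free mice, but the labels of these libraries give neither a pool nor a microbial status. Nor do they tie a library to an animal. The p-values set the difference between the sides against the spread among libraries of the same side. That spread may be technical, so the p-values may not hold for animals.

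TGF-beta is secreted as a latent complex in which the mature dimer is held by its own propeptide and, in most cells, tethered to the matrix by a latent TGF-beta binding protein. Integrins and proteases release it, the type II receptor then recruits and phosphorylates the type I receptor, and the type I receptor phosphorylates Smad2 and Smad3, which enter the nucleus with Smad4. Smad7 and the Ski family protein SnoN, encoded by Skil, restrain the pathway and are themselves induced by it. In stratified epithelia the pathway is known for holding back keratinocyte division.

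All 10 genes passed the low-count filter and were tested, and 6 differed between the sides in edgeR's quasi-likelihood test at a false discovery rate of 0.05. Of all 14062 genes tested, 38.9% passed the same threshold. Tgfb3, Ltbp1, Smad7, Tgfb2 and Tgfbr1 were higher in palatal epithelium, where 18.7% of tested genes were higher. Tgfbr3 was lower, as 20.3% of tested genes were. Tgfb1, Tgfbr2, Smad3 and Skil did not pass. The median log2 fold change of the 10, palatal minus buccal, was 0.21, against 0.01 over all tested genes. In 3 of the 10, Tgfb3, Ltbp1 and Smad7, the 5 palatal libraries all lay above the 5 buccal ones, and palatal libraries lay above in this way for 13.6% of tested genes, below for 14.7%, and in either direction for 28.3%. Tgfb3 and Ltbp1 also differed by at least 2-fold, as 10.2% of tested genes did. Levels are CPM, which is counts scaled to a common library size (with TMM factors), and fold changes are on the log2 scale with their standard error (n = 5 per side throughout).

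**Figure D1:**
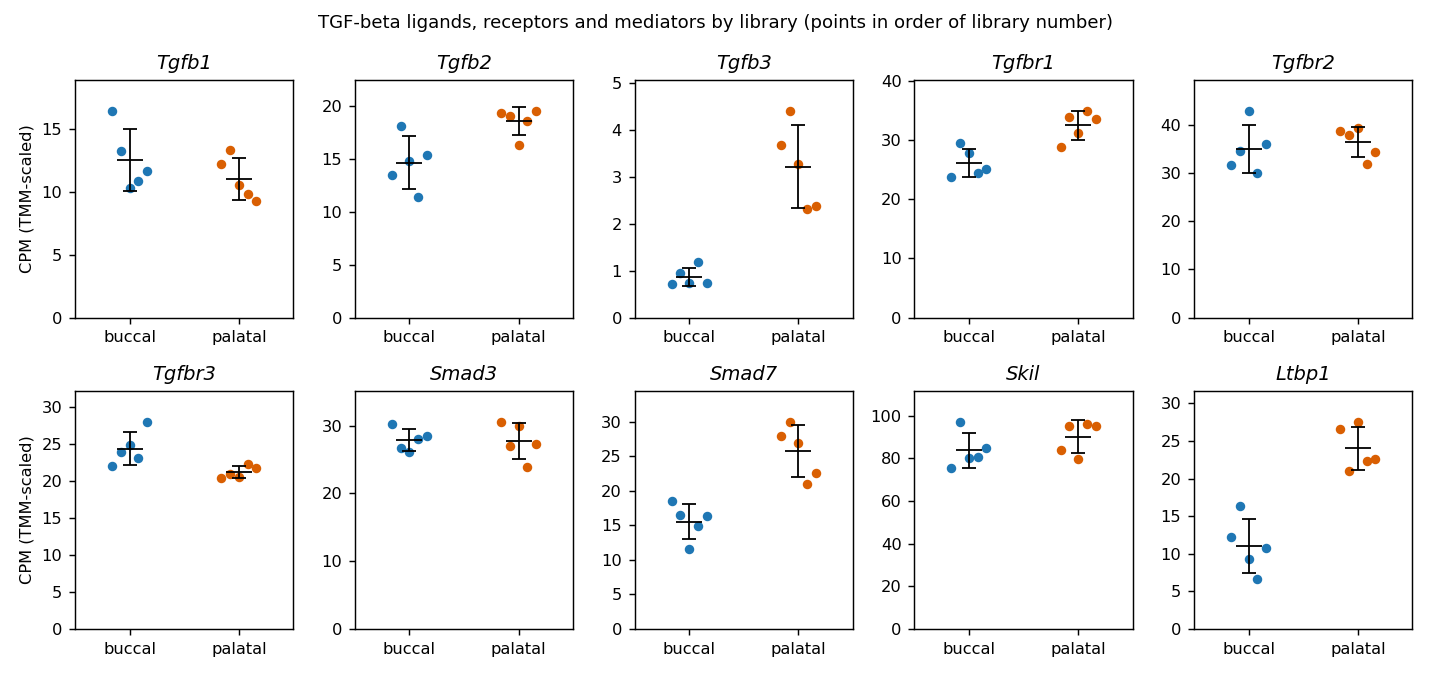
CPM of the 10 genes in each library (points, 5 per side in order of library number), with the mean and SD per side as black bars and the y axis starting at 0. Tgfb3, Smad7 and Ltbp1 show no overlap between the sides, while the points of the other 7 genes overlap.

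Among the ligands, Tgfb3 showed the largest difference of the 10 genes. Tgfb3 (ENSMUSG00000021253), the isoform known for its part in fusion of the palatal shelves, was counted 22, 29, 23, 34 and 28 times in buccal libraries 1 to 5 and 111, 138, 116, 58 and 66 times in palatal libraries 1 to 5. Its level was 0.708, 0.952, 0.741, 1.17 and 0.745 CPM in buccal and 3.68, 4.40, 3.27, 2.31 and 2.38 CPM in palatal libraries. Every palatal library was above every buccal one, and palatal libraries 4 and 5 were the lowest of their side. The log2 fold change was 1.90 ± 0.21 (edgeR adjusted p = 6.12e-06), or 3.73-fold, and stayed between 1.76 and 2.03 under all 20 alternative settings and left-out libraries.

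Tgfb2 (ENSMUSG00000039239) rose by a smaller amount. It stood at 13.5, 18.1, 14.8, 11.4 and 15.3 CPM in buccal and at 19.3, 19.0, 16.3, 18.6 and 19.5 CPM in palatal libraries. Buccal library 2 lay within the palatal range, so the sides overlapped. The log2 fold change was 0.34 ± 0.11 (edgeR adjusted p = 0.0198, 1.27-fold). Its edgeR adjusted p came near the threshold of 0.05 in some alternatives. It was 0.0475 with scaling by library totals, 0.0461 without buccal library 4 and 0.0432 without buccal library 1. Tgfb1 (ENSMUSG00000002603), the most widely expressed isoform, ran from 10.3 to 16.5 CPM in buccal and from 9.31 to 13.3 CPM in palatal libraries. Its log2 fold change was -0.18 ± 0.13 with a 95% interval of -0.46 to 0.11 (edgeR adjusted p = 0.319).

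Fewer cells of a type and less RNA per cell cannot be told apart in these bulk samples, and markers of other cells moved between the sides. Beside the marker counts below stand the shares of all tested genes, 18.7% higher and 20.3% lower in palatal. Of 13 leukocyte markers 12 were tested, 10 were lower and 1 was higher in palatal, and their summed level was 135.5 to 217.9 CPM in buccal against 57.0 to 73.0 CPM in palatal libraries. The largest part of these sums was Cd74 alone, at 120.6 ± 29.5 CPM in buccal and 33.5 ± 5.54 CPM in palatal libraries (SD). The higher marker was Itgam, which rose from 1.63 ± 0.54 to 10.6 ± 1.53 CPM (edgeR adjusted p = 3.11e-08). Leukocytes also make Tgfb1, and the part of these cells in its values was not tested. Of 12 fibroblast markers 7 were tested, 3 were higher and 1 was lower, with a summed level of 59.7 to 69.1 CPM in buccal and 120.2 to 136.3 CPM in palatal libraries. The proteoglycan gene Dcn, at 6.61 ± 1.90 and 73.3 ± 6.40 CPM (SD), carried that difference in the sum. The other 11 summed to 50.8 to 62.3 and 49.8 to 55.0 CPM, but genes within that sum moved in opposite directions. Mean Fbln1 fell from 35.6 to 25.5 CPM (edgeR adjusted p = 1.03e-04). Mean Thy1 rose from 16.2 to 21.7 CPM (edgeR adjusted p = 0.00737), and mean Col6a3 from 0.809 to 1.304 CPM (edgeR adjusted p = 0.0122). The fibroblast genes Lum, Pdgfra, Pdgfrb, Dpt and Fap were at 0.397 CPM or less in every library, though none was at 0 in all of them. Col1a1 stood at 1.87 ± 0.51 CPM in buccal and 1.48 ± 0.73 CPM in palatal libraries (edgeR adjusted p = 0.405). The part of Dcn-expressing cells in the difference in Tgfb3 was not tested. The keratinocyte markers that define the labelled tissue were abundant on both sides, all 10 tested, with 4 higher (Krt14, Krt15, Krt10 and Col17a1) and 3 lower (Krt13, Krt4 and Dsg3) in palatal. Endothelial markers summed to 5.79 to 9.26 CPM in buccal and 5.001 to 9.32 CPM in palatal libraries (4 of 10 tested, 1 higher, 1 lower). Pericyte and smooth muscle markers summed to 22.9 to 34.9 and 24.0 to 39.2 CPM (3 of 7 tested, 1 lower). Most of these sums was Cspg4, at 22.8 ± 4.72 and 30.5 ± 7.21 CPM (SD), which did not pass (edgeR adjusted p = 0.0686). The lower gene was Acta2, at 2.66 ± 0.69 and 1.75 ± 0.49 CPM.

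Start-site sequence was at hand for 6 of the 10 genes, in 8 entries of 300 bases each (250 before the start and 50 from it on), from RefSeq on GRCm38.p6. Those of Tgfb2, which rose, and of Tgfb1, which did not pass, are shown because the pair differed in base composition. Capitals mark the Smad-binding core CAGAC (or GTCTG on the other strand) and the GC box GGGCGG (or CCGCCC).
Tgfb2, chr1:186705940-186706239, minus strand: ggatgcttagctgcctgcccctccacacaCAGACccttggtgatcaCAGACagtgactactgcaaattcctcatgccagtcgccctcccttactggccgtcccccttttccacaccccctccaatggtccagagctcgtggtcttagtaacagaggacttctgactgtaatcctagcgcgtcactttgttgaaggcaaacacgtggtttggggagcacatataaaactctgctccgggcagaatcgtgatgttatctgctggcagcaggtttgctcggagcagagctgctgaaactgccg
Tgfb1, chr7:25686752-25687051, plus strand: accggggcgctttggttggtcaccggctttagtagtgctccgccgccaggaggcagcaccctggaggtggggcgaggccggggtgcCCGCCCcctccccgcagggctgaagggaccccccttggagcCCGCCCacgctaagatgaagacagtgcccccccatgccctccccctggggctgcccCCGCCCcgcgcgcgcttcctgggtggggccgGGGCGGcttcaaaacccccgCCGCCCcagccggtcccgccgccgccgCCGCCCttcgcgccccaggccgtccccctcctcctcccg
The Tgfb2 window held 2 CAGAC cores, 0 GC boxes and 54.3% G and C. The Tgfb1 window held 0 CAGAC cores, 6 GC boxes and 77% G and C. Of the 2 windows of Tgfbr1, which rose, 1 held 0 cores, 2 GC boxes and 74.7% G and C. The other held 1 core, 0 GC boxes and 52% G and C. Among genes that did not pass, Tgfbr2 had 1 core, 0 GC boxes and 59% G and C, and Smad3 had 0 cores, 2 GC boxes and 67.7%. Whether these motifs go with the change between the sides was not tested. Of 32851 promoter windows of this length, 49.6% held a CAGAC core and 35.7% a GC box. The full palindromic Smad site GTCTAGAC was in 0 of the 8 windows and in 0.213% of all windows, and the AP-1 site TGAGTCA (or TGACTCA) was in 0 of the 8 and in 5.2% of all.

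Within a library, the balance between the ligands does not depend on how libraries are scaled. It was followed as the log2 ratio of counts for 7 pairs of the 10 genes, each compared by an exact two-sided permutation test whose smallest p with 5 against 5 is 0.00794, adjusted over the 7 pairs by Benjamini-Hochberg. The log2 ratio of Tgfb3 to Tgfb1 was -3.84 ± 0.47 in buccal and -1.81 ± 0.21 in palatal libraries (SD), a difference of 2.03 (exact permutation p = 0.00794, adjusted p = 0.0185). No palatal library overlapped a buccal one in this ratio. The ratio of Tgfb3 to Tgfb2 differed by 1.503 (exact permutation p = 0.00794, adjusted p = 0.0185), again with no overlap. The ratio of Tgfb2 to Tgfb1 differed by 0.53 (exact permutation p = 0.0159, adjusted p = 0.0278) with overlapping libraries, and without palatal library 5 its adjusted p was 0.0556. Taken per exon length, Tgfb3 made up 4.96% ± 1.62 (SD) of the summed level of the 3 ligands in buccal and 14.8% ± 2.86 in palatal libraries. The share of Tgfb1 was 47.0% ± 5.61 in buccal and 34.5% ± 2.16 in palatal libraries, and that of Tgfb2 was 48.0% ± 5.64 and 50.7% ± 4.91. Tgfb3 was thus the least abundant ligand per length in both tissues.

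**Figure D2:**
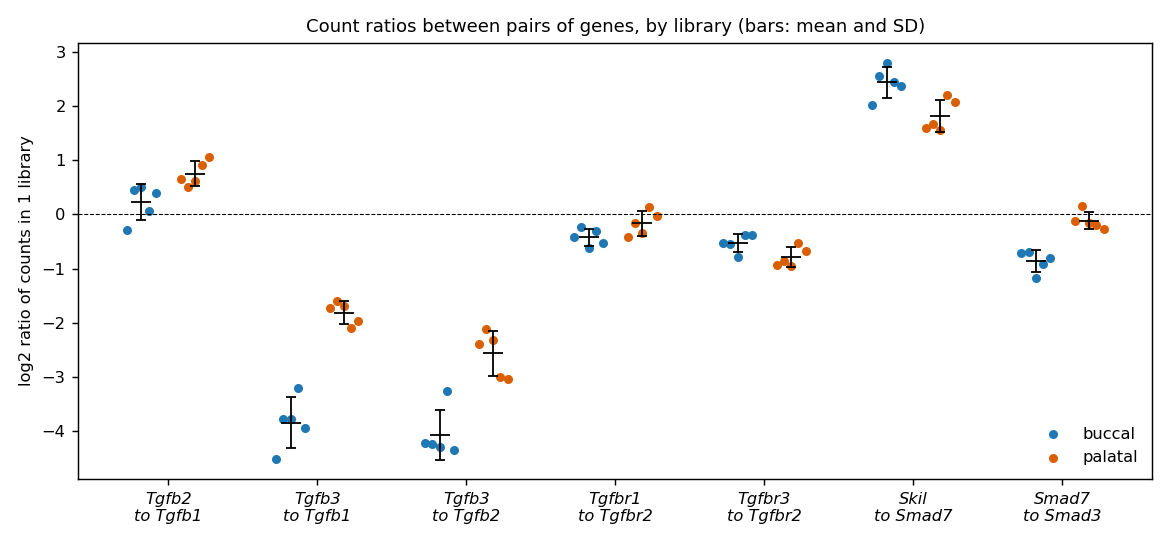
Log2 ratio of counts in 1 library for 7 pairs of genes (points: 5 libraries per side; black bars: mean and SD). The ratios of Tgfb3 to Tgfb1, Tgfb3 to Tgfb2 and Smad7 to Smad3 show no overlap between buccal and palatal libraries.

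Ltbp1 (ENSMUSG00000001870), which encodes a binding protein that tethers latent TGF-beta to the matrix, had the second-largest difference. It stood at 12.2, 16.3, 9.34, 6.63 and 10.8 CPM in buccal and at 26.6, 21.0, 27.5, 22.4 and 22.6 CPM in palatal libraries. The lowest palatal library was above the highest buccal one. The log2 fold change was 1.12 ± 0.19 (edgeR adjusted p = 3.83e-04, 2.17-fold). Ltbp1 was also the most variable of the 10 genes among buccal libraries, where its SD was 32.4% of its mean, against 11.9% among palatal libraries.

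Ltbp1 is transcribed from separate starts that give a long and a short protein, and gene-level counts do not divide its reads between them. The windows at both starts are shown, as RefSeq gives them on GRCm38.p6, with capitals marking the CAGAC core (GTCTG where it lies on the other strand).
Ltbp1, upstream start, chr17:75005279-75005578, plus strand: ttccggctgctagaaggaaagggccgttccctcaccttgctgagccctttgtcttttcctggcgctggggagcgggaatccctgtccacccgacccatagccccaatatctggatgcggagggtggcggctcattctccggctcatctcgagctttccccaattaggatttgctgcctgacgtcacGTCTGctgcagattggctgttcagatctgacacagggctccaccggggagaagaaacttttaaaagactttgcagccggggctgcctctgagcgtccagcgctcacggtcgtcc
Ltbp1, downstream start, chr17:75178531-75178830, plus strand: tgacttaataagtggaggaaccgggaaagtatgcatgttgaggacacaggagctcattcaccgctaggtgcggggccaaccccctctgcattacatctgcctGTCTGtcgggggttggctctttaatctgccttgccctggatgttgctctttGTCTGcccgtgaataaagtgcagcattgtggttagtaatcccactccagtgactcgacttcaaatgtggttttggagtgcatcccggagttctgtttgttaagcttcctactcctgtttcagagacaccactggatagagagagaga
The upstream window held 1 core and 58.7% G and C, and the downstream window held 2 cores and 50% G and C. Neither held a GC box. Which start the extra palatal reads came from is not given by these counts.

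Of the 2 receptor kinases, Tgfbr1 rose by a small amount and Tgfbr2 did not pass. Tgfbr1 (ENSMUSG00000007613), the type I receptor kinase, stood at 23.8, 29.6, 27.9, 24.4 and 25.2 CPM in buccal and at 28.8, 34.0, 31.2, 35.0 and 33.7 CPM in palatal libraries. Buccal library 2 exceeded palatal library 1, and the other palatal values were above all buccal ones. Tgfbr1 thus rose by 0.31 ± 0.08 (edgeR adjusted p = 0.00515, 1.24-fold). Tgfbr2 (ENSMUSG00000032440), the type II receptor kinase that binds the ligand, ran from 30.1 to 43.0 CPM in buccal and from 31.99 to 39.4 CPM in palatal libraries. Its log2 fold change was 0.06 ± 0.09, with a 95% interval of -0.14 to 0.26 (edgeR adjusted p = 0.673). The ratio of Tgfbr1 to Tgfbr2, the direct test of that contrast, differed by 0.25 on the log2 scale and did not pass (exact permutation p = 0.0873, adjusted p = 0.0873). Without palatal library 1 it passed, at an adjusted p of 0.0463.

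Tgfbr3 (ENSMUSG00000029287) encodes the co-receptor betaglycan, which presents ligand, TGF-beta 2 in particular, to the type II receptor. Tgfbr3 was the 1 gene of the 10 that passed the threshold as lower in palatal epithelium. It stood at 22.01, 23.8, 24.8, 23.0 and 27.9 CPM in buccal and at 20.3, 20.9, 20.5, 22.2 and 21.7 CPM in palatal libraries. Palatal library 4 was above buccal library 1, so the sides overlapped slightly. This came to a log2 fold change of -0.20 ± 0.07 (edgeR adjusted p = 0.0374). Of the 6 calls this was the 1 lost under any alternative tried. Its adjusted p was 0.079 without buccal library 3, 0.106 without buccal library 5, and 0.0896, 0.0667, 0.0919 and 0.0561 without palatal libraries 1, 2, 3 and 5. It was 0.104 with no low-count filter and 0.0723 without number 2 on both sides. The ratio of Tgfbr3 to Tgfbr2 differed by -0.26 and did not pass (exact permutation p = 0.0556, adjusted p = 0.0648), although its adjusted p was 0.0444 without buccal library 3 and 0.0333 without palatal library 4.

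**Figure D3:**
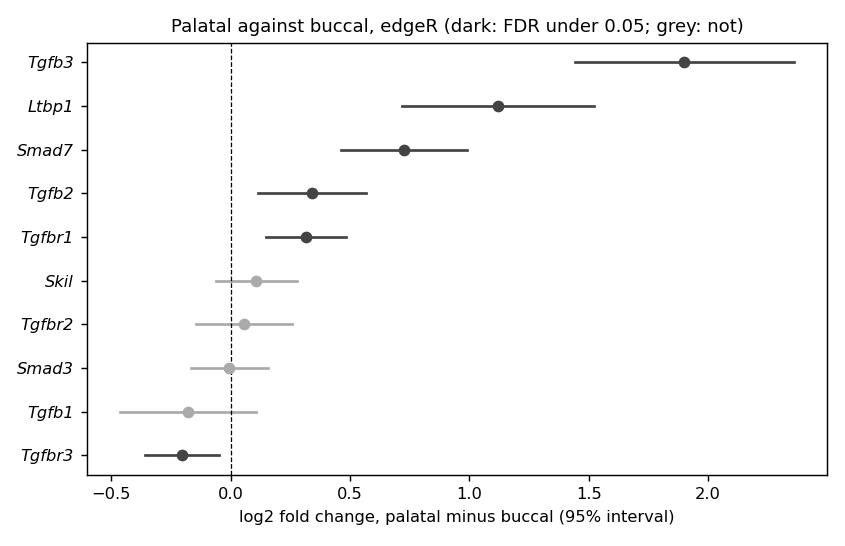
Log2 fold change, palatal minus buccal, of the 10 genes with the 95% interval from the edgeR fit (dark: past a false discovery rate of 0.05; grey: not). Tgfb3 at 1.90 and Ltbp1 at 1.12 are farthest from 0, and the intervals of Skil, Tgfbr2, Smad3 and Tgfb1 include 0.

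Of the intracellular mediators, Smad7 alone passed. Smad7 (ENSMUSG00000025880) encodes the inhibitory Smad that blocks the type I receptor and promotes its degradation. Smad7 stood at 18.5, 16.5, 11.5, 14.9 and 16.3 CPM in buccal and at 28.0, 29.9, 26.9, 21.0 and 22.6 CPM in palatal libraries. The sides did not overlap, and palatal libraries 4 and 5 were again the lowest of their side, as they were for Tgfb3. They were also the lowest for genes that did not pass, Tgfb1, Tgfbr2, Ltbp3 and Ltbp4, so this order was not particular to Smad7 and Tgfb3. The log2 fold change of Smad7 was 0.73 ± 0.12 (edgeR adjusted p = 2.93e-04, 1.65-fold). Smad3 (ENSMUSG00000032402), a receptor-activated Smad, ran from 26.03 to 30.1 CPM in buccal and from 23.9 to 30.5 CPM in palatal libraries. Its log2 fold change was -0.01 ± 0.08 with a 95% interval of -0.17 to 0.16 (edgeR adjusted p = 0.96), and its sign turned under 6 of 20 alternatives. Skil (ENSMUSG00000027660), whose product SnoN represses Smad target genes, ran from 75.5 to 97.0 CPM in buccal and from 79.8 to 96.3 CPM in palatal libraries. Its log2 fold change was 0.11 ± 0.08 with a 95% interval of -0.06 to 0.28 (edgeR adjusted p = 0.31).

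The balance of the 2 feedback inhibitors shifted toward Smad7. The log2 ratio of Skil to Smad7 was 2.44 ± 0.28 in buccal and 1.82 ± 0.29 in palatal libraries (SD), a difference of -0.62 (exact permutation p = 0.0238, adjusted p = 0.0333), with overlapping libraries. Its adjusted p was 0.0556 without buccal library 2, 3, 4 or 5, and 0.12 without number 2 on both sides. The log2 ratio of Smad7 to Smad3 was -0.86 ± 0.20 in buccal and -0.12 ± 0.16 in palatal libraries, a difference of 0.74 with no overlap (exact permutation p = 0.00794, adjusted p = 0.0185).

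Per kilobase of exon, Skil was the most abundant of the 10 genes on both sides, at 8.63 ± 0.84 CPM per kb in buccal and 9.30 ± 0.79 CPM per kb in palatal libraries (SD), with no library of another gene in its range. In buccal libraries it was followed by Smad3 at 5.03, Tgfbr2 at 4.29, Tgfbr1 at 4.00, Tgfbr3 at 3.72, Smad7 at 3.44, Tgfb2 at 2.53 and Tgfb1 at 2.48 CPM per kb, and the ranges of neighbours in this order overlapped. Ltbp1 at 1.03 and Tgfb3 at 0.255 CPM per kb lay below, each with a range clear of the gene above it. In palatal libraries Smad7 moved from the sixth place to the second, at 5.68 CPM per kb, with a range that overlapped that of Smad3 at 5.003. Tgfbr1 at 4.98 and Tgfbr2 at 4.46 came next, then, below a gap, Tgfbr3 at 3.23 and Tgfb2 at 3.20. Ltbp1 at 2.25 and Tgfb1 at 2.19 CPM per kb overlapped each other below a further gap, and Tgfb3 at 0.949 CPM per kb stayed the lowest. Exon lengths were taken from another annotation release than the authors' and include exons of every isoform, so levels between genes are approximate.

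**Figure D4:**
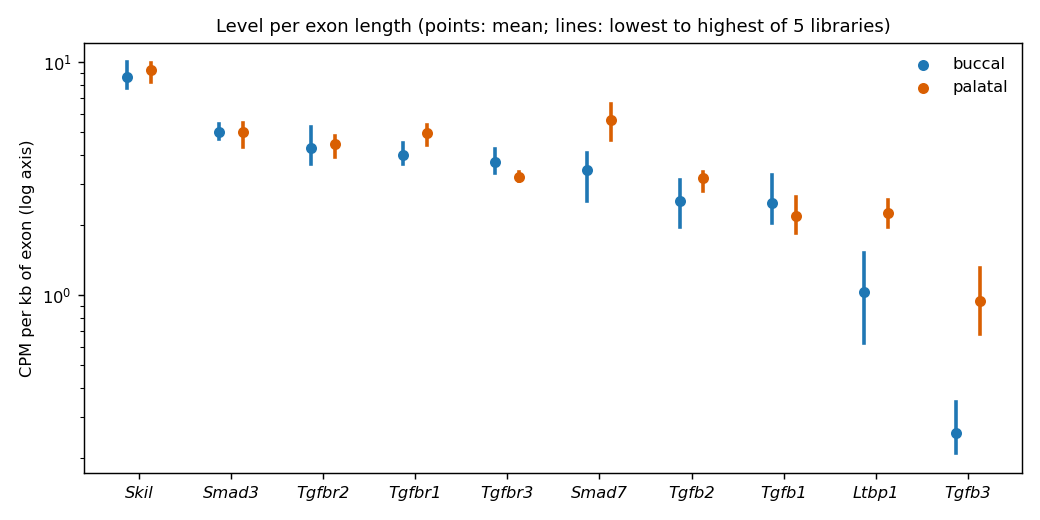
Level per kilobase of exon on a log axis (points: mean; lines: lowest to highest of 5 libraries per side). Skil is highest and Tgfb3 lowest on both sides, and Ltbp1, Tgfb3 and Smad7 have palatal ranges above their buccal ranges.

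The genes that release and hold latent TGF-beta were read from a list of 17, of which 15 were tested, 4 rose and 2 fell, a share of 40% against 38.9% of all tested genes. Itgb6, the integrin subunit that with the alpha v subunit activates latent TGF-beta in epithelia, rose from 13 ± 2.29 to 24.0 ± 2.014 CPM (SD; log2 fold change 0.88 ± 0.11, edgeR adjusted p = 2.37e-05). Itgb5, another alpha v partner, rose by 0.53 ± 0.07. Bmp1, a protease that also cleaves latent binding proteins, rose by 0.73 ± 0.09. Fbn1, the microfibril protein to which latent complexes are anchored, rose by 2.91 ± 0.24 from a low level, 0.231 ± 0.051 to 1.77 ± 0.42 CPM. Lrrc32 encodes GARP, a membrane protein that holds latent TGF-beta on regulatory T cells and platelets, and it fell from 28.9 ± 5.98 to 12.6 ± 1.21 CPM (log2 fold change -1.20 ± 0.13, edgeR adjusted p = 6.34e-06). Of the 12 leukocyte markers tested, 10 fell, where 20.3% of all tested genes were lower. The pan-leukocyte gene Ptprc was among them, from 8.68 ± 2.13 to 2.79 ± 0.35 CPM. Itgam rose from 1.63 ± 0.54 to 10.6 ± 1.53 CPM, and Cd14 did not pass (log2 fold change -0.08 ± 0.27). The part of leukocytes in the fall of Lrrc32 was not tested. Genes named here after their values were seen were Nrros, the microglial and macrophage counterpart of Lrrc32, which fell by 0.97 ± 0.27 and was not tested under a filter of 1 CPM in 5 libraries, and Itgav, Ltbp3 and Ltbp4, which did not pass (log2 fold changes -0.02 ± 0.08, 0.16 ± 0.10 and -0.08 ± 0.11).

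Of 14 co-receptors and receptor regulators, all tested, 6 rose and 1 fell. That was 50% against 38.9% of all tested genes (18.7% higher, 20.3% lower). Bambi, a decoy receptor that lacks a kinase domain, rose from 4.53 ± 1.01 to 18.1 ± 2.90 CPM (SD; log2 fold change 1.99 ± 0.15, edgeR adjusted p = 1.20e-07). Cd109, a membrane protein that binds TGF-beta and limits its receptor, rose by 0.46 ± 0.06, and Zfyve9, which encodes the Smad anchor SARA, by 0.38 ± 0.07. Nrp1, a co-receptor for several growth factors, rose by 2.18 ± 0.24, from 0.473 ± 0.212 to 2.17 ± 0.20 CPM. Dcn, whose proteoglycan product binds TGF-beta, rose by 3.47 ± 0.17 and is also on the fibroblast list. The gene that fell was Pmepa1, an inducible inhibitor that sequesters receptor-activated Smads, by 0.64 ± 0.15 (edgeR adjusted p = 0.00484, named after its value was seen).

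Of 20 Smads, Smad partners and Smad regulators, 19 were tested, 3 rose and 3 fell. That was 31.6% against 38.9% of all tested genes (18.7% higher, 20.3% lower). Smad2 and Smad4 did not pass, at log2 fold changes of -0.10 ± 0.06 and 0.00 ± 0.07 (edgeR adjusted p = 0.222 and 0.985), and the sign for Smad4 turned under 10 of 20 alternatives. The ubiquitin ligase genes Nedd4l and Wwp1, whose products act on Smads and receptors, rose by 0.43 ± 0.07 and 0.25 ± 0.06, and Ppm1a, a Smad phosphatase gene, rose by 0.27 ± 0.07. Smurf1, a ubiquitin ligase gene that partners with Smad7, fell by 0.26 ± 0.06. Trim33, which encodes a ligase acting on Smad4, fell by 0.22 ± 0.08 (edgeR adjusted p = 0.0342), but its adjusted p was above 0.05 without buccal library 2, 3 or 5 or palatal library 1, 2 or 3, and reached 0.0946 among these. It was 0.123 without number 2 on both sides. The third gene that fell was Usp15, named after its value was seen (log2 fold change -0.24 ± 0.08, edgeR adjusted p = 0.0358). With any one of those 6 libraries left out, 1 gene of the list fell instead of 3. That gene was Smurf1, so Usp15 was lost together with Trim33. All of these differences were under 1.5-fold.

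Of 24 genes known as TGF-beta targets in cultured cells, 21 were tested, 2 rose and 5 fell, or 33.3%, with a median log2 fold change of -0.16. Tgfbi, an extracellular matrix protein gene named for its induction by TGF-beta, rose from 130.4 ± 10.5 to 197.7 ± 14.3 CPM (SD; log2 fold change 0.60 ± 0.07, edgeR adjusted p = 1.14e-05). Cdkn2b, the cyclin-dependent kinase inhibitor p15, rose by 0.47 ± 0.07. Bhlhe40, a transcriptional repressor gene, fell by 0.36 ± 0.06. Angptl4, which encodes an inhibitor of lipoprotein lipase, fell by 1.06 ± 0.21, from 1.45 ± 0.35 to 0.688 ± 0.125 CPM. Zeb1 and Pdgfb, both named after their values were seen, also fell. Zeb1 fell by 1.46 ± 0.28, from a low level of 0.805 ± 0.223 to 0.291 ± 0.092 CPM (edgeR adjusted p = 6.84e-04). Pdgfb fell by 0.41 ± 0.14 (edgeR adjusted p = 0.0289). Itga5, the fibronectin receptor subunit, fell by 0.54 ± 0.18 (edgeR adjusted p = 0.0256), but its adjusted p lay above 0.05 without buccal library 2 or 5 or palatal library 4 or 5, reaching 0.0577, and was 0.0913 without number 2 on both sides. Ccn2, a connective tissue growth factor gene widely used as a TGF-beta reporter and named here after its value was seen, stood at a log2 fold change of -0.01 ± 0.28 (edgeR adjusted p = 0.98), with a 95% interval of -0.62 to 0.60. Without palatal library 4 or 5, the number of target genes that fell was 3 instead of 5.

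The activin branch uses other ligands and receptors but the same Smad2 and Smad3. Of 20 listed genes 9 were tested, 5 rose and 1 fell, or 66.7% against 38.9% of all tested genes (18.7% higher, 20.3% lower). The 11 untested ones did not reach the count filter, so the 9 are not the whole list. Inhbb, which encodes the activin B subunit, rose from 3.71 ± 0.73 to 10.3 ± 0.94 CPM (SD; log2 fold change 1.47 ± 0.13, edgeR adjusted p = 4.11e-07). The activin antagonist genes Fst and Fstl3 rose as well, by 1.79 ± 0.13 and 0.38 ± 0.07, and so did Lefty1, an antagonist of nodal signalling, by 0.88 ± 0.14. Acvr2a, an activin type II receptor gene, fell from 46.5 ± 3.58 to 30.4 ± 2.91 CPM (log2 fold change -0.61 ± 0.08, edgeR adjusted p = 2.12e-05), with every palatal library below every buccal one. The activin type I receptor gene Acvr1b, named after its value was seen, rose from 74.1 ± 7.31 to 93.6 ± 4.85 CPM. Its log2 fold change was 0.34 ± 0.07 (edgeR adjusted p = 0.00192), with every palatal library above every buccal one.

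**Figure D5:**
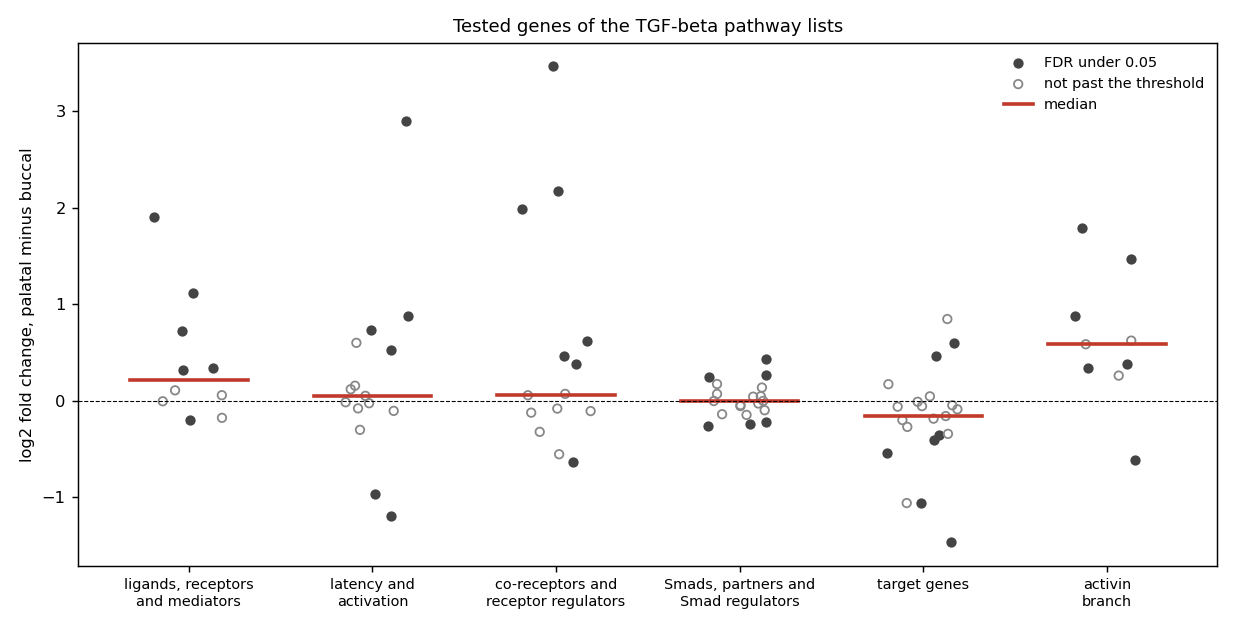
Log2 fold change, palatal minus buccal, of each tested gene on the member list and the 5 wider lists (filled: past a false discovery rate of 0.05; open: not; red line: median). The medians are 0.21, 0.05, 0.06, 0.00, -0.16 and 0.59 from left to right, and each of the 6 lists holds genes that passed in both directions.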

How the data were processed

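Raw counts per gene and library were made by the authors, per the file headers. Tools in the submitters' processing notes, listed without roles, were HTSeq 2.01, TopHat2 2.1.1, DESeq2 1.36.0 and cutadapt 2.10, with build GRCm39. Whether counting used strand is not given in the sources used here, so reads of overlapping antisense genes may be included. Deposited DESeq2-normalized values (a signal equal to the count divided by 1 factor per library) served as 1 alternative. The 6250 rows with blank counts, 1 listed leukocyte marker among them, were left out.

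Libraries held 25868777 to 37234192 counts. Groups follow the tissue label. Genes were kept by filterByExpr (minimum count 10), scaled by TMM and tested with edgeR 4.0.16's quasi-likelihood F-test (robust, two-sided, Benjamini-Hochberg over all 14062 tested genes; limma 3.58.1, DESeq2 1.42.0, R 4.3.3). Standard errors were derived from F and the fold change. Ratios used a pseudocount of 0.5. On simulated counts for this comparison (13940 genes tested, 200 changed), 77.5%, 95.0% and 100.0% of 1.5-, 2- and 4-fold changes were recovered, with 11 false calls of 189. The simulation changed a far smaller share of genes than the 38.9% called in the data, and none by less than 1.5-fold. It therefore gives no rate for smaller differences, such as those of Tgfb2, Tgfbr1 and Tgfbr3. Exon lengths come from GENCODE M21 on GRCm38 and sequences from RefSeq on GRCm38.p6, with no coordinates on GRCm39. The rule named all 10 genes, Smad2, Smad4, and in each wider list up to 5 called genes with the smallest p and at least 1 CPM on the higher side. Genes and lists were chosen with earlier results of these data known. Alternatives are listed in the closing section.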

Additional observations from a re-analysis of the deposited data

Results flagged for a closer look

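In 5 of 88 groups of 5 libraries, 1 library lay farther from the rest than Dixon's test at 95% allows, and chance alone gives about 1 in 20. Palatal library 3 had the lowest Tgfb2 level of its side, 16.3 CPM, with the other 4 at 18.6 to 19.5 CPM. Buccal library 4 had the lowest Itgb6 level of its side, 9.05 CPM, with the others at 13.5 to 15.04 CPM. That library also had the highest buccal log2 ratio of Tgfb3 to Tgfb2, -3.26, with the others between -4.34 and -4.22. Among targets and activin-branch genes, 1 buccal library was high in Angptl4 at 2.06 CPM (others 1.22 to 1.45) and 1 palatal library was high in Lefty1 at 7.93 CPM (others 5.65 to 6.21).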

How the results depend on the processing

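The count of 5 called genes that were higher, and the calls of Tgfb2, Tgfb3, Tgfbr1, Smad7 and Ltbp1, kept their side of the threshold under all 20 alternatives (RLE, upper-quartile or total scaling, 2 other filters, DESeq2, limma-voom, limma-trend, the replicate block, 10 left-out libraries, number 2 left out on both sides). The 1 lower call, Tgfbr3, fell to 0 with no filter and without number 2 on both sides, and was 0 to 1 with a library left out. Lower calls in the latency list were 1 under the stricter filter. Those in the Smad list were 1 without number 2, and 1 to 3 with a library left out, and target genes that fell were 3 to 6.

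The log2 fold change of Smad3, -0.01, was 0.0057 with upper-quartile scaling and 2.27e-04 with no filter, and ran from -0.038 to 0.047 with a library left out. That of Smad4 was 1.71e-04 with RLE, 0.0092 with upper-quartile scaling, 0.0038 with no filter, 3.59e-05 with DESeq2 and 0.063 without number 2, and ran from -0.033 to 0.041 with a library left out. For these 2 genes and Tgfbr3 the cause was not tested.

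With a library left out, the log2 ratios ran from 0.40 to 0.60 for Tgfb2 to Tgfb1, 0.18 to 0.32 for Tgfbr1 to Tgfbr2, -0.33 to -0.22 for Tgfbr3 to Tgfbr2 and -0.72 to -0.53 for Skil to Smad7, which was -0.55 without number 2.

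Same-numbered libraries did not all deviate together from their side's mean (correlations 0.60, -0.26, -0.11, 0.25 and 0.12 over 8118 genes; 2 of 5 buccal and 1 of 5 palatal libraries correlated best with their own number). The labels do not say whether a number marks a shared animal, so the numbers were not taken as pairs. With the number as a replicate block, 5518 genes passed in place of 5474, and 6 of the 10. For ratios, sign flips within numbers cannot give a p under 0.0625, and the values of 0.53, 2.03, 1.503, -0.62 and 0.74 (Tgfb2 to Tgfb1, Tgfb3 to Tgfb1, Tgfb3 to Tgfb2, Skil to Smad7, Smad7 to Smad3) all had an adjusted p of 0.0729 in this pairing. Tgfb3 rested on 22 to 34 counts per buccal library, which limits the precision of its fold change.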
